A study of Mus musculus with 168 samples.

Results

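Hippocampal mRNA of Q92 mice at 10 months of age was compared with that of wild-type (WT) and Q20 mice of the same age. Q92 mice are heterozygous: 1 allele of Htt, the gene for huntingtin, is the mouse allele, and the other carries exon 1 of the human gene with a CAG repeat of about 92 codons. Q20 mice are heterozygous for the same kind of allele with about 20 codons, a length of the common human range, and served as controls together with WT mice. The members were every library whose title names Q92 and 10 months, 8 in all (4 females and 4 males), set against 8 WT (4 females and 4 males) and 8 Q20 libraries (5 females and 3 males). They are 24 of the 56 libraries of 10 months and of the 168 of the series, which also holds ages 2 and 6 months and the lines Q80, Q111, Q140 and Q175. All mice were on a C57BL/6 background, and total RNA came from flash-frozen hippocampus. WT mice were littermates of the Q20 line and by the labels were kept with Q20 mice, whereas Q92 mice came from a line of their own and by the labels were kept with Q92 mice. The published methods describe cages of a single sex that mixed heterozygous and WT animals, and at most 1 animal of each sex and genotype from a litter. The cage of an animal is not named, and line and allele cannot be told apart. Titles number the animals within each sex, and a library is called here by group, sex and that number (Q92 female 4). The p-values measure the spread between libraries, 1 for each numbered animal. In the main fits that spread was estimated over all lines of 10 months.

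An expanded CAG repeat of exon 1 lengthens the polyglutamine tract of huntingtin and causes Huntington's disease. The striatum is the brain region hit first and hardest, and the hippocampus, a region of memory formation, is affected more mildly. Several gene groups bear on hippocampal neurons in such mice. Immediate early genes are switched on within minutes by synaptic activity and by handling or other arousal, many through the transcription factors CREB and SRF. Clock genes set daily rhythms of transcription, so that their levels also depend on the hour of dissection. Markers of the choroid plexus, the tissue in the ventricles that secretes cerebrospinal fluid, report how much of it came along in the dissection.

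The repeat that was replaced lies near the start of the coding sequence, and the mouse version is shown because it is what the WT allele of every animal carries. The first 120 coding bases of the mouse transcript Htt-201 (GENCODE M21, GRCm38, chromosome 5, plus strand) are printed below, with the run of glutamine codons, bases 52 to 72 after 17 codons, in capitals.
Htt-201: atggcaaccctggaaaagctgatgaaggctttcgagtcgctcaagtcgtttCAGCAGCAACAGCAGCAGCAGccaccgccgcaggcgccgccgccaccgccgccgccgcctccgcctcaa
That mouse run has 7 codons, 6 CAG and 1 CAA.

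Libraries held from 30596476 to 42711708 counts in all. Levels are given in CPM, a gene's counts divided by the library's total and scaled to 1000000 counts. Htt itself checked the libraries and split them (plot of Htt, mitochondrial transcripts and Ttr). The 7 Q92 libraries other than Q92 female 4 had an Htt level from 236 to 265 CPM (median 241), and 15 controls had 201 to 238 CPM (median 211). Q92 female 4 stood at 77.3 CPM, and Q20 female 5 at 109 CPM. The nearest library above the threshold of 130 CPM was at 201 CPM. Both libraries stood apart in other ways too. Mitochondrially encoded transcripts took 18.2% of the counts in Q92 female 4, against 9.10 to 9.97% in the other Q92 libraries. Ribosomal protein transcripts took 1.88% in Q92 female 4 and 4.26% in Q20 female 5, against 0.867 to 0.987% in the other 22. Q20 female 5, labelled female, held 55.0 CPM of Ddx3y, a gene of the Y chromosome, and 0.0696 CPM of Xist, the RNA of the inactive X chromosome. The comparison was therefore made with all 24 libraries and without these 2, which leaves 7 Q92 and 15 control libraries. The libraries were fitted together with the other lines of 10 months, 56 libraries in all or 52 without those of low Htt, with sex as a covariate.

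**Figure D1:**
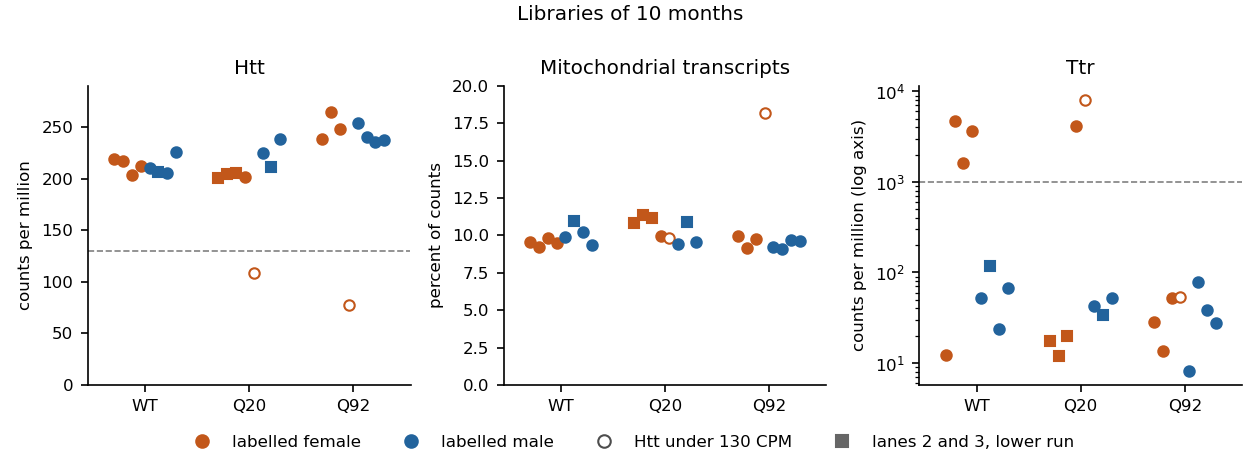
Htt (CPM), mitochondrially encoded transcripts (percent of counts) and Ttr (CPM, log axis) in the 24 libraries of 10 months, 1 point a library, coloured by labelled sex, with open points for low Htt and squares for lanes 2 and 3 of the lower run; dashed lines mark the thresholds of 130 CPM for Htt and 1000 CPM for Ttr. Q92 female 4 lies at 77.3 CPM of Htt and 18.2% of mitochondrial transcripts, and Ttr passes 1000 CPM in 5 controls and in 0 Q92 libraries.

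Few genes separated Q92 from controls. With all 24 libraries, 2 of 17266 genes tested rose (0.0116%), Nptx2 and Fosb, and 0 fell (0%), in edgeR's quasi-likelihood test at a Benjamini-Hochberg adjusted p under 0.05. Without the 2 low-Htt libraries, 4 of 17236 rose (0.0232%), Nptx2, Fosb, Drc1 and Adgrg1, and 2 fell (0.0116%), Nr1d2 and Polk. DESeq2, run as an alternative, called 4 up and 6 down with all libraries. Of these Ddx3y, Eif2s3y and Uty are Y-linked, and Q20 female 5 entered the sex covariate as a female, as labelled. Ttr, Aqp1 and Slc4a5 were also called there, and Ttr is taken up below with the choroid plexus. Without the 2 libraries DESeq2 called 10 up and 11 down, Olig1 and Egr4 among them. Differences at an unadjusted p under 0.05 were far more common: 530 genes were higher (3.07%) and 456 lower (2.64%) with all libraries, and 1273 higher (7.39%) and 995 lower (5.77%) without the 2. Htt was not a called gene. With all libraries its difference was 0.12 on the log2 scale (SE 0.12, adjusted p = 0.999), and no test of Htt is given without the 2 libraries because its level set them apart.

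Nptx2 encodes neuronal pentraxin 2, a protein that excitatory neurons secrete at synapses, where it gathers AMPA receptors, and that neuronal activity induces. The gene lies on chromosome 5 at 144545902-144557478 (GRCm38). Its levels in Q92 females 1 to 4 were 23.6, 22.9, 20.4 and 22.8 CPM, and in Q92 males 1 to 4 they were 20.9, 22.6, 21.6 and 20.3 CPM. The 16 controls ran from 13.6 to 19.3 CPM (median 14.9). Every Q92 library, Q92 female 4 included, lay above every control, so that the groups did not overlap. The difference was 0.47 (log2; SE 0.074, adjusted p = 0.0011) with all libraries and 0.47 (SE 0.072, adjusted p = 0.00042) without the 2, a level about 38.9% higher in the second fit. Nptx2 stayed past the threshold in each of the 24 fits that left out 1 library from the 24, and in each of the 22 fits that left out 1 of the 22.

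Fosb, a transcription factor gene of the AP-1 family and an immediate early gene, was the other gene past the threshold in both fits (chromosome 7, 19302696-19310051). Its levels in Q92 females 1 to 4 were 9.57, 8.60, 4.68 and 7.93 CPM. Q92 males 1 to 4 had 14.3, 9.63, 14.5 and 15.5 CPM. Controls ran from 3.99 to 7.73 CPM (median 6.05). The 4 Q92 males and Q92 females 1, 2 and 4 lay above all controls, and Q92 female 3 lay within their range. The difference was 0.81 (log2; SE 0.15, adjusted p = 0.0213) with all libraries and 0.85 (SE 0.15, adjusted p = 0.00809) without the 2. With all libraries the call was lost in 7 of 24 fits that left out 1 library (Q20 males 2 and 3, Q92 males 1, 3 and 4, WT males 1 and 2), and without the 2 in 2 of 22 (Q92 males 3 and 4). With the Q92 and control libraries alone in the fit, and the other lines left out, Fosb did not pass the threshold, either with all libraries or without the 2.

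The other genes past the threshold were so only without the low-Htt libraries. Drc1 encodes a part of the complex that regulates dynein motors in motile cilia (chromosome 5, 30281388-30366695). The 7 Q92 libraries had 12.2 to 15.2 CPM of Drc1 (median 13.7), and the 15 controls 9.24 to 11.6 CPM (median 10.5). The groups did not overlap. Q92 female 4 lay lower, at 10.5 CPM, and Q20 female 5 higher, at 15.8 CPM. The difference in Drc1 was 0.40 (log2; SE 0.07, adjusted p = 0.00735) without the 2 libraries and 0.31 (SE 0.098, adjusted p = 0.521) with them. The call was lost without Q92 male 3.

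Adgrg1 encodes an adhesion G protein-coupled receptor, also known as GPR56, that takes part in cortical and oligodendrocyte development (chromosome 8, 94974751-95014217). Its level was 60.8 to 72.4 CPM in the 7 Q92 libraries (median 66.2) and 47.6 to 62.9 CPM in the 15 controls (median 55.7). Only the lowest Q92 library lay within the range of the controls. The difference was 0.26 (log2; SE 0.053, adjusted p = 0.028) without the 2 libraries and 0.24 (SE 0.063, adjusted p = 0.421) with them. Of 22 fits that left out 1 library, 8 lost the call (Q20 female 3, Q20 male 2, Q92 females 1, 2 and 3, Q92 male 3, WT males 2 and 4), with an adjusted p up to 0.12.

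Both genes that fell had small differences. Nr1d2 encodes REV-ERB beta, a nuclear receptor of the circadian clock that represses transcription (chromosome 14, 18204054-18239127). The 7 Q92 libraries had 101 to 113 CPM (median 111) and the 15 controls 114 to 142 CPM (median 127). The groups did not overlap, but Q92 female 4 (77.7 CPM) and Q20 female 5 (68.8 CPM) lay below both. The difference in Nr1d2 was -0.20 (log2; SE 0.039, adjusted p = 0.019) without the 2 libraries and -0.22 (SE 0.068, adjusted p = 0.521) with them, and the call was lost without Q92 female 1, Q92 female 3 or Q92 male 3. Polk encodes DNA polymerase kappa, an enzyme that copies past damaged bases (chromosome 13, 96480690-96542579). It had 12.1 to 14.0 CPM in the 7 Q92 libraries (median 13.5) and 13.7 to 17.3 CPM in the 15 controls (median 15.3), so that 6 of 7 Q92 libraries lay below all of those controls. The difference in Polk was -0.21 (log2; SE 0.044, adjusted p = 0.028) without the 2 libraries and -0.19 (SE 0.16, adjusted p = 0.999) with them, where Q20 female 5 stood at 2.18 CPM. The Polk call was lost without Q20 male 1, Q92 females 1 or 3, Q92 male 3 or WT male 4.

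**Figure D2:**
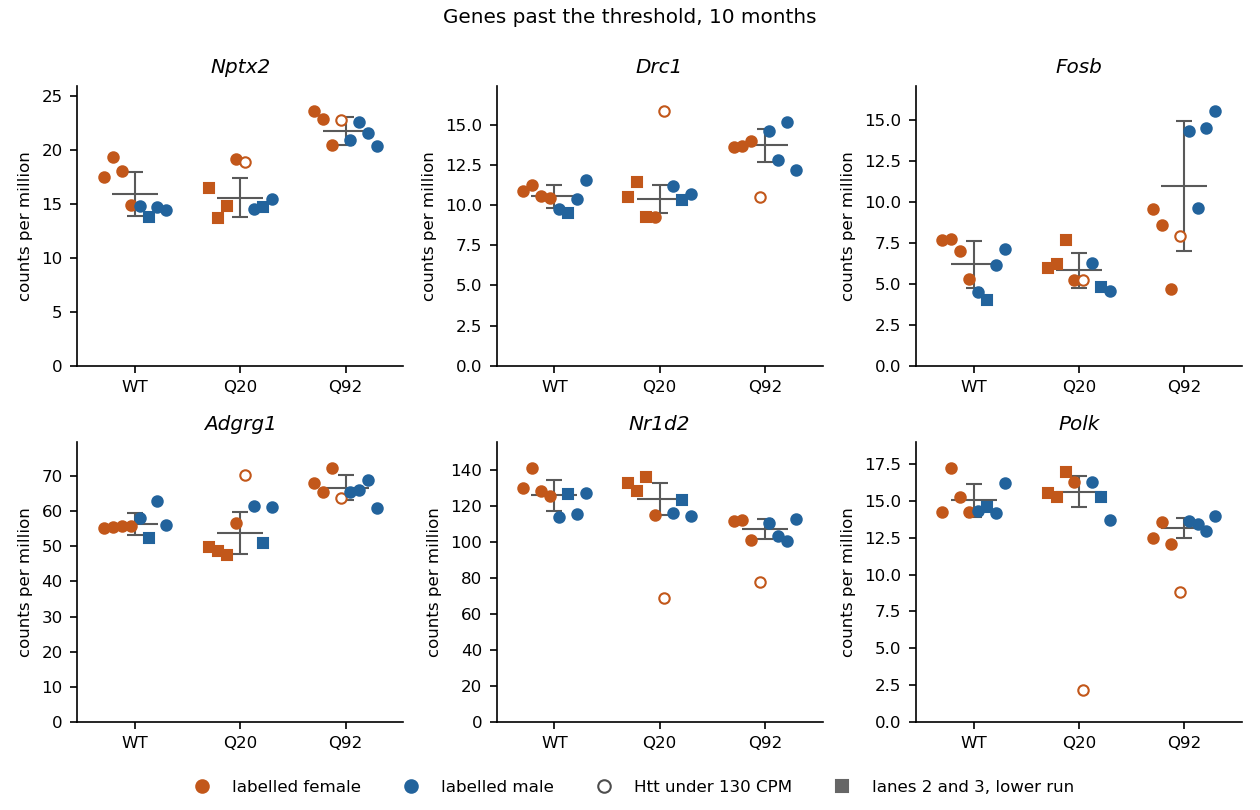
Levels (CPM) of the 6 genes past the threshold in the libraries of 10 months, 1 point a library, coloured by labelled sex, with open points for low Htt, squares for lanes 2 and 3 of the lower run, and bars for the mean and SD without low-Htt libraries. Nptx2 shows 8 Q92 libraries above all 16 controls, and the wide spread of Fosb among Q92 libraries, 4.68 to 15.5 CPM, is split by sex.

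Olig1, a transcription factor gene of the oligodendrocyte lineage, came next. It had 52.8 to 69.3 CPM in the 7 Q92 libraries and 35.8 to 59.5 CPM in the 15 controls, with a difference of 0.39 (log2; SE 0.084, adjusted p = 0.055) without the low-Htt libraries. The lists of oligodendrocyte genes stood near 0. Their medians were -0.005 for 14 markers of myelinating cells and 0.07 for 11 markers of precursor and newly formed cells, with 0 genes past the threshold in either. In bulk tissue, a change in the number of cells of a type and a change in RNA per cell cannot be told apart.

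The calls depended unequally on which controls were used. Against the 8 WT libraries alone the differences without low-Htt libraries were 0.46 for Nptx2 (adjusted p = 0.0108), 0.81 for Fosb (0.0864), 0.39 for Drc1 (0.0534), 0.23 for Adgrg1 (0.285), -0.22 for Nr1d2 (0.0534) and -0.19 for Polk (0.285). Against the 7 Q20 libraries alone they were 0.49 for Nptx2 (adjusted p = 0.0102), 0.89 for Fosb (0.0403), 0.41 for Drc1 (0.0332), 0.29 for Adgrg1 (0.0403), -0.18 for Nr1d2 (0.0872) and -0.24 for Polk (0.0332). Each of the 6 differences had the same sign against either control, and of the 6 only Nptx2 passed the threshold against both.

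Some facts about the control libraries stand beside these results. The description of each library is a code that the labels do not explain. It was read here as a library number and a lane, and so read, the libraries of 10 months form a lower-numbered and a higher-numbered run. In lanes 2 and 3 of the lower run stood 5 of the 15 kept controls (Q20 females 1, 2 and 3, Q20 male 2 and WT male 2) and 0 Q92 libraries. Mitochondrial transcripts took 10.8 to 11.4% of the counts in those 5, against 9.20 to 10.3% in the other 10. With those lanes as a covariate, Nptx2 (0.44, adjusted p = 0.00329), Fosb (0.84, 0.0189) and Drc1 (0.38, 0.0189) stayed past the threshold, and Adgrg1 (0.19, 0.0622), Nr1d2 (-0.18, 0.0622) and Polk (-0.20, 0.0667) did not. Dbp, a clock output gene, fell in that fit (-0.35, adjusted p = 0.0298). With the libraries of those lanes left out instead, 3 genes passed, Nptx2, Drc1 and Dbp, and Fosb did not. Within the lower run alone (5 Q92 and 9 controls) and the higher run alone (2 Q92 and 6 controls) the differences were 0.51 and 0.38 for Nptx2, 0.94 and 0.60 for Fosb, 0.37 and 0.44 for Drc1, 0.27 and 0.27 for Adgrg1, -0.18 and -0.29 for Nr1d2, and -0.20 and -0.28 for Polk. Neither run alone had a gene past the threshold, with 3301 and 1201 genes at an unadjusted p under 0.05.

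Choroid plexus tissue also moved with the groups. Ttr, which encodes transthyretin and is abundant in the plexus, passed 1000 CPM in 5 of 16 controls (Q20 females 4 and 5, WT females 2, 3 and 4, at 1625 to 8118 CPM) and in 0 of 8 Q92 libraries (8.10 to 77.5 CPM). All 11 choroid plexus markers tested were lower in Q92 at an unadjusted p under 0.05 without the low-Htt libraries (0 past the threshold, median difference -2.26, and -2.57 with all libraries). These values are from edgeR, and DESeq2 with all libraries did call Ttr. Their summed level was 41.0 to 116 CPM in Q92 and 39.4 to 8306 CPM in controls. Leaving out the Ttr-rich libraries as well brought the median of these markers to -0.02 and raised the count of genes past the threshold from 6 to 482, of which 319 rose. Of the immediate early genes described next, 11 of 21 rose in that fit. The kept controls are then mostly males, and all 5 controls of lanes 2 and 3 of the lower run are among them. With those lanes left out as well, 1 gene passed the threshold, Nptx2. The part of plexus tissue in these counts was not tested.

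Immediate early genes were mostly higher in Q92, although few passed the threshold. Of 21 genes listed, all of which were tested, 2 rose (Fosb and Nptx2), 21 had a positive difference and 16 reached an unadjusted p under 0.05 without the low-Htt libraries, where the background is 7.39%. Their median difference was 0.46, against -0.004 over all genes. With all libraries 14 reached that p (background 3.07%), with the same median of 0.46. Fos, the founding AP-1 gene, differed by 0.88 (SE 0.25, adjusted p = 0.207), Egr2, a zinc finger transcription factor gene, by 1.07 (SE 0.32, adjusted p = 0.22), and Egr4 of the same family by 0.78 (SE 0.17, adjusted p = 0.0682). Junb differed by 0.75, Npas4, a factor of activity-dependent inhibition, by 0.58, Egr1 by 0.51 and Arc, which acts in the removal of AMPA receptors, by 0.43, each with an adjusted p above 0.2. The smallest differences were those of Bdnf (0.10) and Jun (0.13).

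The differences of the group were large in males and near 0 in females, but the control females and males were unlike in make-up. Among kept control females, Q20 females 1, 2 and 3 stood in lanes 2 and 3 of the lower run. Q20 female 4 and WT females 2, 3 and 4 were Ttr-rich. Among control males, Q20 male 2 and WT male 2 stood in those lanes, and none was Ttr-rich. The part of the Ttr-rich controls in the difference between the sexes was not tested. In the 4 Q92 males against 7 control males, 20 of the 21 genes were higher at an unadjusted p under 0.05 (background 6.85%) and 10 rose, with a median difference of 0.83. In the 3 kept Q92 females against 8 control females, 1 gene was higher at that p (background 3.95%) and 10 were positive, with a median of -0.04. Fosb had a mean of 13.5 CPM in Q92 males (SD 2.63, n = 4) and 5.35 CPM in control males (SD 1.17, n = 7), and the means in females were 7.62 CPM (SD 2.59, n = 3) and 6.59 CPM (SD 1.06, n = 8). Fos stood at 25.1 CPM in Q92 males (SD 8.01) and 7.25 CPM in control males (SD 3.46), and at 9.77 and 12.3 CPM in the females. In males alone 31 of 17268 genes passed the threshold (0.18%), 30 of them higher in Q92, and in females alone 0 of 17460 (0%), with 1511 at an unadjusted p under 0.05. The male genes included Egr2 (2.08 on the log2 scale), Fos (1.78), Apold1 (1.56), Fosb (1.32), Egr4 (1.32), Ccn1 (1.24), Egr1 (1.04), Sik1 (0.98), Nr4a1 (0.93), Dusp1 (0.89), Egr3 (0.69), Nptx2 (0.53) and Nr4a3 (0.42).

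The difference between the sexes was itself tested, as the Q92 difference in females minus that in males. It passed the threshold for 7 of 17236 genes (0.0406%) without the low-Htt libraries, and for 1, Ccn1, with all of them. The latter fit counts Q20 female 5 as a female, and its part in the lower count was not tested. Fos (-2.10, SE 0.43, adjusted p = 0.0488), Ccn1 (-1.44, SE 0.26, adjusted p = 0.0286), Sik1 (-1.37, SE 0.26, adjusted p = 0.0286) and Dusp1 (-1.16, SE 0.24, adjusted p = 0.0489), all stimulus-induced genes, were among them, as were Coq10b and Tiparp (each -0.60, adjusted p = 0.0348). Shisa6, which encodes an auxiliary protein of AMPA receptors, went the other way (0.40, SE 0.083, adjusted p = 0.0488). Over the 21 immediate early genes the female minus male difference was negative in 21 and reached an unadjusted p under 0.05 in 17 (background 3.57%), with a median of -0.80. That count of 7 became 0 without Q92 female 3, without Q92 male 4 or without WT female 2, and 12 without WT male 3. Of 22 fits that left out 1 library, Ccn1 stayed past the threshold in 19 and Sik1 in 16. Coq10b and Tiparp each stayed in 10, Fos in 8, Dusp1 in 7 and Shisa6 in 6. Nptx2 was different: its means were 22.3 and 16.7 CPM in Q92 and control females and 21.3 and 14.6 CPM in the males, and the sexes did not differ at the threshold (-0.11, SE 0.14, adjusted p = 0.962).

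Library by library, the mean log2 level of the 21 genes relative to the control median was 0.49 to 0.88 in Q92 males and -0.42 to 0.14 in control males, with no overlap. It was -0.21 to 0.35 in kept Q92 females and -0.08 to 0.37 in control females, which overlapped. The mean over kept control females was 0.12, and that over control males was -0.18. Q92 female 4 stood at 0.18 and Q20 female 5 at -0.79. The list's median difference was 0.54 within the lower run, 0.17 within the higher run (3 genes higher at an unadjusted p under 0.05, background 2.95%), 0.36 with lanes 2 and 3 as a covariate and 0.53 without the Ttr-rich libraries. The labels give neither the hour of dissection nor the cage of an animal.

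**Figure D3:**
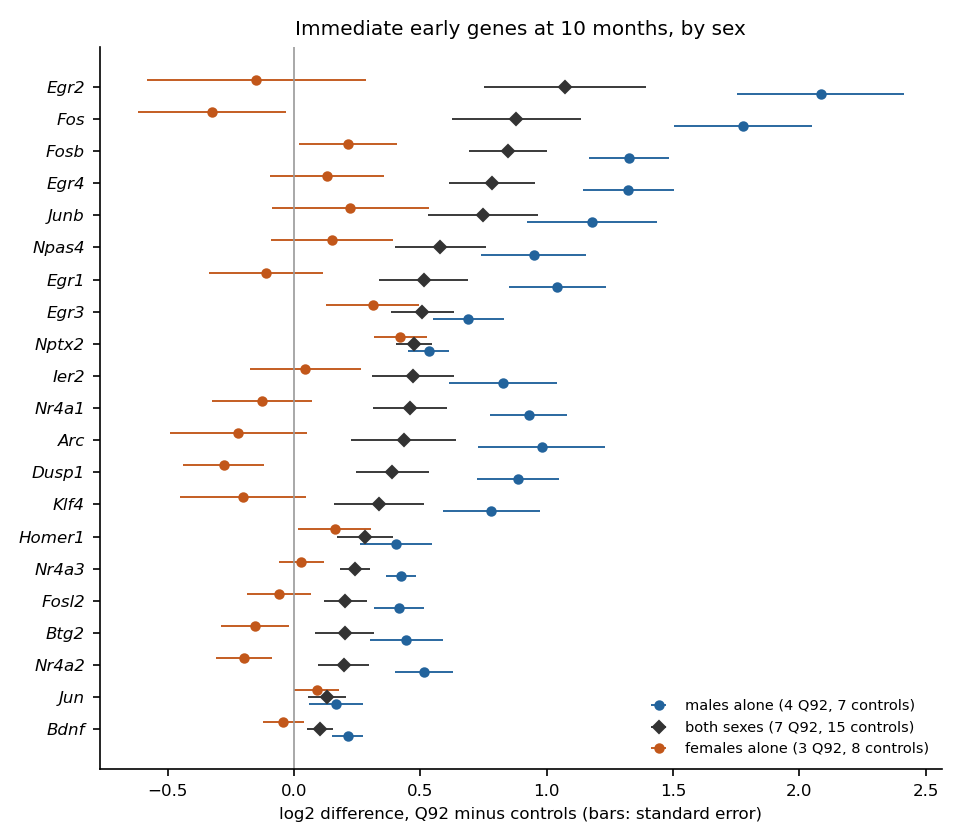
Log2 difference between Q92 and controls for the 21 immediate early genes without low-Htt libraries, with points and SE bars for both sexes together, for females and for males. Values in males run up to 2.08 (Egr2) while the median in females is -0.04.

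Promoter sequences are given for 3 of the genes that rose in males, because the binding site of CREB is one entry point of neuronal activity. The stretches are the 250 bases before the transcription start in RefSeq (GRCm38.p6), with each match to TGACG, the short form of the CREB site, in capitals (CGTCA where it is on the other strand).
Fosb (chr7:19310046-19310295, minus strand): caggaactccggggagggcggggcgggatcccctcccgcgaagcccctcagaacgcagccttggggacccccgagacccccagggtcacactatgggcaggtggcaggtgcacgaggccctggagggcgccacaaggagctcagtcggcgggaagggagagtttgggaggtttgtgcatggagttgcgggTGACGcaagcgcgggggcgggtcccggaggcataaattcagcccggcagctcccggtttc
Fos (chr12:85473640-85473889, plus strand): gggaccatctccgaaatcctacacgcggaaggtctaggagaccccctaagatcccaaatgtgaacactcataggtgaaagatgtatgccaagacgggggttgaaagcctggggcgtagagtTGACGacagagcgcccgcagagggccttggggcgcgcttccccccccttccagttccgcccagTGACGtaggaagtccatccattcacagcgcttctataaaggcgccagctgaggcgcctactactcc
Egr4 (chr6:85513590-85513839, minus strand): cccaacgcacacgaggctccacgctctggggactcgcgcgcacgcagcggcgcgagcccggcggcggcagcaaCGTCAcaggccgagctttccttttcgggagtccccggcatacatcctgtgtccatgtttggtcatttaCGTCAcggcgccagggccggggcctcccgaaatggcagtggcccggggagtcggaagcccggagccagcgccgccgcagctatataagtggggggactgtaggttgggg
The short site began 60 bases before the start of Fosb, 129 and 66 bases before that of Fos, and 177 and 109 bases before that of Egr4. Of the 21 listed genes 16 matched the table, and 12 of these held TGACG, against 17.8% of all 32851 promoters of that length. The 3 shown are all among those that held it. Egr2, whose difference in males was the largest of the list, did not hold it, nor did Bdnf, Fosl2 and Jun. The full palindrome TGACGTCA, which contains TGACG on both strands, was in 2 of 16 against 1.55%. The E-box CACGTG was in 3 of 16 against 6.02%, and the CArG box, the core of the SRF site, in 0 of 16 against 1.47%. Sites further than 250 bases before the start were not searched. Egr1, Egr3, Ier2, Arc and Nptx2 had no entry, so a count of 0 does not show that the listed genes lack SRF sites. Each listed gene was counted at a single start, whereas the share over all promoters counts every start of a gene. The list was set by gene name, so these shares describe the genes in any mouse and say nothing of Q92. These are matches of letters and do not show binding.

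The clock list held 1 of the called genes. Of 15 genes tested without the low-Htt libraries, Nr1d2 fell, 5 were lower at an unadjusted p under 0.05 (background 5.77%) and 1 was higher (background 7.39%). Dbp had 29.9 to 44.3 CPM in Q92 and 34.8 to 56.8 CPM in controls (-0.29, adjusted p = 0.175). Ciart, a repressor of the core clock activators, differed by -0.26, Bhlhe41 by -0.15 and Per3 by -0.15. Arntl, which encodes the activator BMAL1, differed by 0.16 (adjusted p = 0.195), in the direction opposite to Nr1d2. The median of the list was -0.05, and -0.08 with all libraries, where 0 of the 15 passed the threshold and 3 were lower at an unadjusted p under 0.05.

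Without the low-Htt libraries Drc1 was the only positive gene of the 14 in the list of ependymal and motile cilia genes, which had a median of -0.24. With all libraries 2 of the 14 were positive, with a median of -0.23. Drc1 lies 4.48 Mb from Htt on chromosome 5, on the side of the shorter coordinates, and Nptx2 lies 109.8 Mb away. Of the 1040 genes tested on chromosome 5, 2 passed the threshold, 9.23% were higher and 6.73% lower at an unadjusted p under 0.05. Within 10 Mb of Htt these shares were 11.4% and 7.83% of 166 genes, with 1 past the threshold, against 7.39% and 5.77% of all genes.

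Cell type and pathway lists otherwise changed little. Without the low-Htt libraries, where 7.39% of all genes were higher and 5.77% lower at an unadjusted p under 0.05, 13 of 15 markers of CA1 pyramidal neurons were positive and 4 were higher at that p: Wfs1 (0.41), Pou3f1 (0.20), Fibcd1 (0.15) and Itpka (0.14). The summed level of the CA1 markers was 1206 to 1269 CPM in the kept Q92 libraries. It was 960 to 1143 CPM in the controls of lanes 2 and 3 of the lower run, and 1123 to 1242 CPM in the other kept controls. Of 16 markers of dentate granule cells 12 were negative and 0 reached that p. Of 15 interneuron markers 5 were higher and 1 was lower at that p, with a median of 0.002. Of 17 neuropeptide genes 10 were positive and 7 negative, with a median of 0.02, and 5 were higher at that p, among them Vgf (0.34), Sst (0.22) and Cck (0.13), and their summed level was 618 to 692 CPM in Q92 and 564 to 640 CPM in controls. With all libraries, where the background is 3.07%, 2 of the CA1 markers and 0 of the neuropeptide genes were higher at that p, and the medians were 0.06 and 0.13. Without the low-Htt libraries the astrocyte list had a median of 0.009, the microglia and complement list 0.04 with 4 of 14 higher at that p, and the genes of striatal projection neurons 0.03.

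The mitochondrially encoded list turned with the libraries used. With all libraries 11 of its 13 genes were positive (median 0.07). Without the low-Htt pair 0 were positive and 5 were lower at an unadjusted p under 0.05 (background 5.77%, median -0.10). With lanes 2 and 3 as a covariate the median was -0.03 and 0 genes reached that p.

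**Figure D4:**
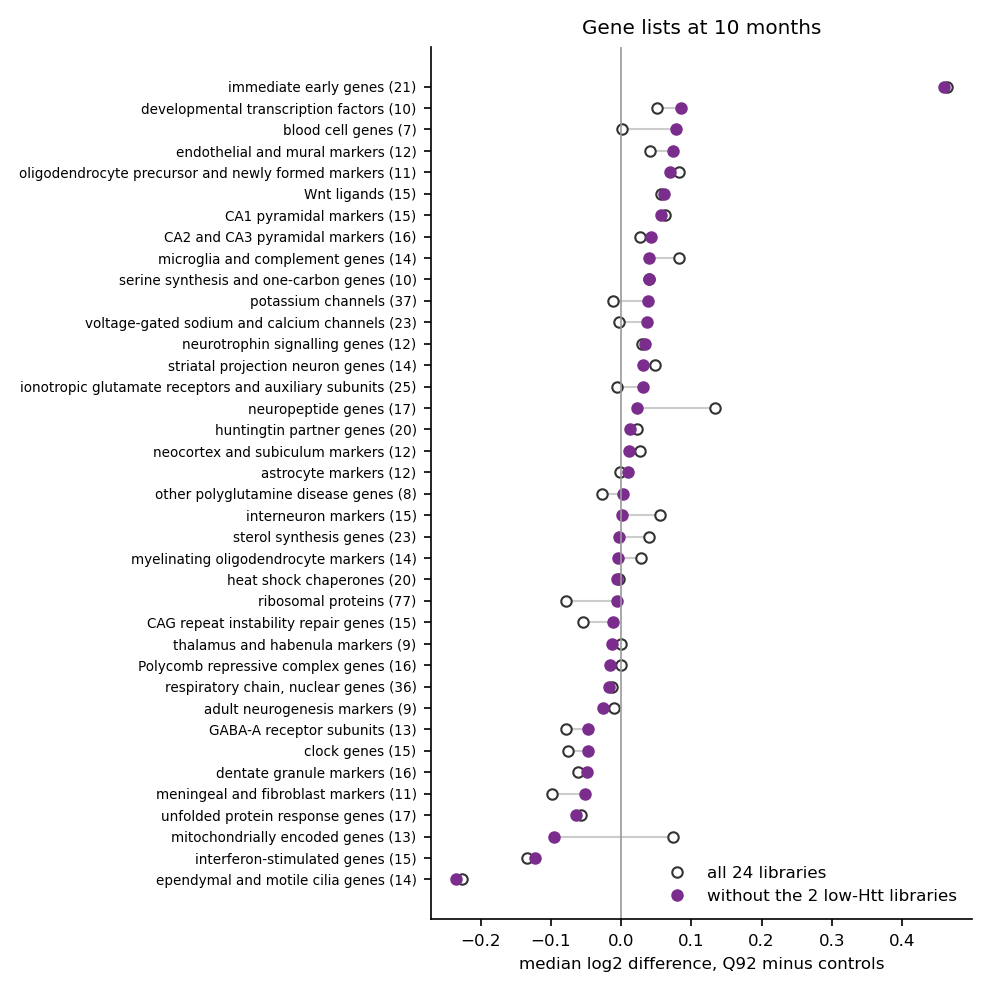
Median log2 difference between Q92 and controls over each gene list, with the number of genes tested in brackets; open points use all 24 libraries and filled points leave out the 2 of low Htt, and the choroid plexus list is omitted for its size. The immediate early genes lie at 0.46 in both, while the medians of most lists lie close to 0.

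At 2 months the same contrast gave 0 of 17320 genes past the threshold (0%; 129 by unadjusted p under 0.05; 0 adjusted in DESeq2). At 6 months Q92 was compared with Q20 alone, since the WT libraries of that age have the numbers of another run, and 0 of 17143 genes passed (0%; 331 by unadjusted p under 0.05; 0 adjusted in DESeq2). Nptx2 differed by 0.04 at 2 months and -0.10 at 6 months, and Fosb by 0.20 and -0.26. Mean Nptx2 levels in WT, Q20 and Q92 were 21.6, 23.0 and 22.8 CPM at 2 months and 21.5, 23.9 and 22.1 CPM at 6 months. At 10 months they were 15.9 CPM in WT (SD 2.04, n = 8), 15.5 CPM in Q20 (SD 1.80, n = 7) and 21.7 CPM in Q92 (SD 1.28, n = 7). The Q92 means were close at the 3 ages, and the lower level at 10 months was in both control groups. Mean Nptx2 at 2 and 10 months was 23.1 and 18.9 CPM in Q111 and 24.3 and 19.3 CPM in Q140. It was 22.7 and 15.4 CPM in Q175, and 23.0 and 22.3 CPM in Q80. These changes with age were not tested. Drc1 had differences of 0.37 at 2 months and 0.35 at 6 months, short of the threshold: WT, Q20 and Q92 means were 10.1, 9.83 and 12.9 CPM at 2 months, 9.33, 9.52 and 12.1 CPM at 6 months and 10.5, 10.4 and 13.7 CPM at 10 months. The ages were separate groups of animals, numbered apart, so that levels across ages also differ by library.

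Tested directly, the difference at 10 months minus that at 2 months passed the threshold for 0 of 17729 genes (0%; 521 by unadjusted p under 0.05), and DESeq2 called 1, Prl, the gene for prolactin. Unadjusted values of p in edgeR were 0.0005 for Nptx2, 0.0071 for Fosb, 0.0004 for Adgrg1, 0.0077 for Nr1d2 and 0.0022 for Polk, all with an adjusted p = 0.998, and 0.848 for Drc1. These genes were chosen by their difference in the same libraries of 10 months, so the unadjusted values are not free of that choice. The immediate early genes had a median of 0.06 at 2 months (18 of 21 positive) and -0.17 at 6 months (0 positive), in each case with 0 at an unadjusted p under 0.05.

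The other lines of 10 months were fitted against the same 15 controls, so that their values share them. For Q80, Q111, Q140 and Q175 in turn, Nptx2 differed by 0.52, 0.27, 0.30 and -0.07, and Fosb by 0.92, 0.16, 0.35 and 0.45. Drc1 differed by 0.30, 0.29, 0.33 and 0.26, and Adgrg1 by 0.15, 0.13, 0.17 and 0.15. Nr1d2 differed by -0.15, -0.10, -0.12 and -0.05, and Polk by -0.16, -0.21, -0.16 and 0.01. The median of the immediate early genes was 0.52, 0.20, 0.25 and -0.05. The values did not follow repeat length for Nptx2, which was highest in Q80 (22.3 CPM) and Q92 and stood at 15.4 CPM in Q175.

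Q92 was compared directly with its neighbours in repeat length, Q80 and Q111 together, a contrast free of the controls. Of 17236 genes 0 passed the threshold (0%; 496 by unadjusted p under 0.05; 0 adjusted in DESeq2). The differences were 0.08 for Nptx2 (unadjusted p = 0.281), 0.31 for Fosb (0.0483), 0.10 for Drc1 (0.166) and 0.12 for Adgrg1 (0.0246) in edgeR. A p that misses the threshold here does not show that the lines were alike.

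**Figure D5:**
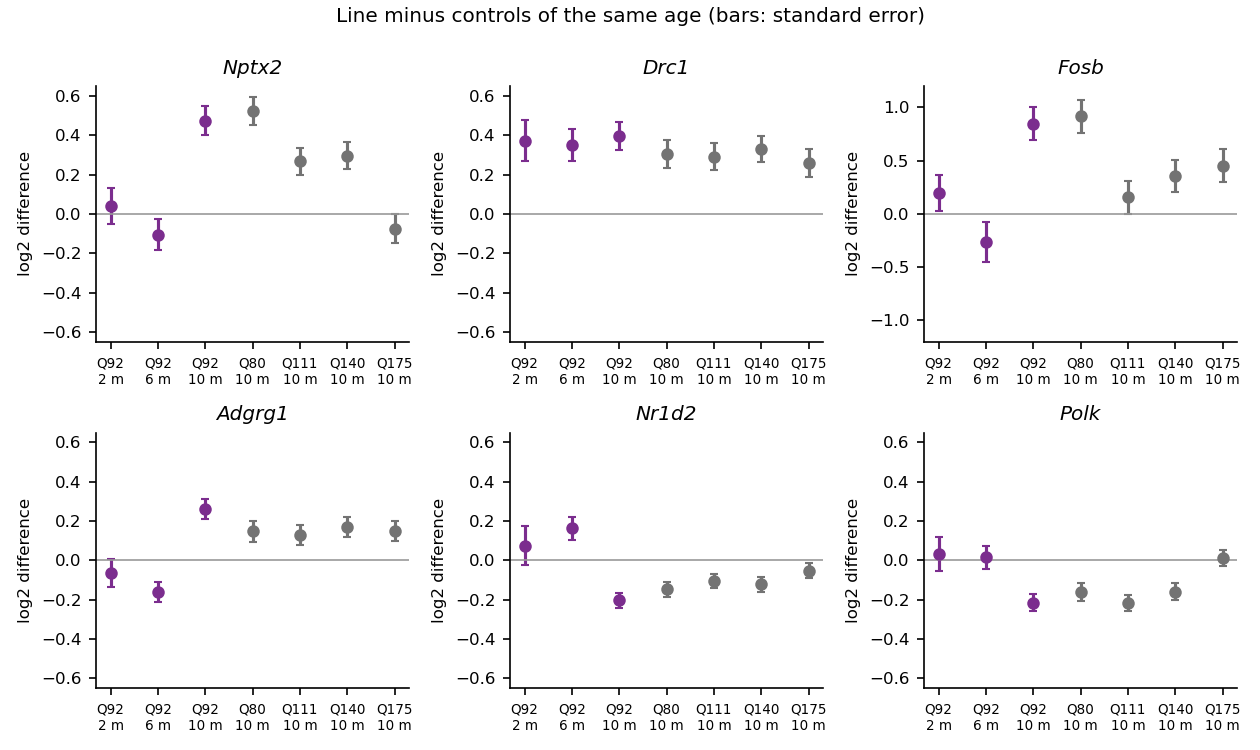
Log2 difference (SE bars) of each line or age against WT and Q20 of its own age (Q20 alone at 6 months), for genes past the threshold, with Q92 in purple and other lines of 10 months in grey. Nptx2 stands near 0 in Q92 at 2 and 6 months (0.04 and -0.10) and at 0.47 at 10 months, while Drc1 stands at 0.37, 0.35 and 0.40.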

How the data were processed

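Total RNA of the hippocampus was sequenced for 168 mice. The authors deposited expected counts per gene, of which 16.9% were not whole, and these were rounded. The labels name CASAVA 1.8.2; the aligner, the quantifier, the use of strand and the genome build were not given in the sources used here. A second deposited table of FPKM values was not used. Names came from GENCODE M21 (GRCm38), which matched 37693 of 39179 identifiers. Totals of the 24 libraries compared were 30596476 to 42711708 counts. R 4.3.3 with edgeR 4.0.16 was used: TMM scaling, filterByExpr (minimum count 10, minimum total 15), glmQLFit and glmQLFTest, with sex as covariate and WT and Q20 as 1 level, over 56 libraries of 10 months, or 52 without those whose Htt was under 130 CPM. Where Htt chose the libraries, it was dropped before adjustment. The threshold was a Benjamini-Hochberg adjusted p under 0.05 over all genes tested, and SE was the size of the log2 difference over the square root of F. DESeq2 1.42.0 was an alternative. The scripts were tested on simulated data.

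Named are Htt, up to 15 genes a direction past the threshold in either fit (smallest p first), up to 4 such members of each of 39 gene lists (610 of 611 symbols found) and up to 2 most abundant members of other lists; Olig1, the genes of the sex difference, those of males alone, Dbp, Prl and further list members named with values were chosen after their values were seen. Members and lists were chosen with earlier results of these data known. Alternatives on lanes, runs, sexes alone and Ttr-rich libraries were chosen after seeing the data. Of 84 pairs of libraries of 1 group, 0 were as alike as repeats of 1 library (lowest chi-square per gene 5.35, median 21.9). The published methods describe microRNA of these mice, so the design was carried over from them.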

Additional observations from a re-analysis of the deposited data

Results flagged for a closer look

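Among 39 values examined in groups of 8 libraries, 15 had a library far from the rest by Dixon's test, which chance alone gives in about 1 of 20 groups, and 14 of the 15 came from the 2 libraries of low Htt. Those of Htt were fixed by the rule that chose the 2 libraries. Polk, Nr1d2 and Drc1 were examined because they passed the threshold without the 2. Q92 female 4 stood apart in Htt (77.3 CPM), mitochondrial transcripts (18.2%), ribosomal protein transcripts (1.88%), the tilt of its levels with gene length (-0.49), its standardised connectivity to the other libraries (-47.9), Polk (8.84 CPM) and Nr1d2 (77.7 CPM). Q20 female 5 stood apart in Htt (108.8 CPM), ribosomal protein transcripts (4.26%), the length tilt (-0.67), connectivity (-106.5), Polk (2.18 CPM), Nr1d2 (68.8 CPM) and Drc1 (15.8 CPM). WT female 2 stood apart in connectivity (-5.65) and held 4728 CPM of Ttr.

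The Q92 difference was unlike in the sexes, by the interaction test of edgeR with Benjamini-Hochberg adjustment, for 7 genes. Female minus male it was -1.44 for Ccn1, -1.37 for Sik1, -0.60 for Coq10b, -0.60 for Tiparp, -2.10 for Fos, -1.16 for Dusp1 and 0.40 for Shisa6. Each of these 7 calls was lost in some of the 22 fits that left out 1 library. Ccn1 stood at 6.23 CPM in Q92 males (SD 1.51, n = 4) and 2.63 CPM in control males (SD 0.315, n = 7), and at 3.01 and 3.48 CPM in females. Sik1 stood at 18.1 and 9.11 CPM in the males and at 10.1 and 13.3 CPM in the females. Shisa6 stood at 193 and 214 CPM in the males and at 221 and 188 CPM in the females.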

How the results depend on the processing

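With all libraries the count of 2 genes became 10 by DESeq2, 4 against Q20 alone (Ddx3y and Eif2s3y, Y-linked, among them), 9 with the length tilt as covariate, 1 with the compared libraries alone in the fit, 7 without divergent libraries, and 1 to 4 leaving out 1 library (4 without Q20 female 5; 1 without Q20 males 2 or 3, Q92 males 1, 3 or 4, or WT males 1 or 2). Without low-Htt libraries the count of 6 became 21 by DESeq2, 11 against Q20 alone, 2 against WT alone, 3 (Nptx2, Drc1, Dbp) without lanes 2 and 3, 1 without these and Ttr-rich libraries, 482 without Ttr-rich libraries, 0 in females, 31 in males, 0 in either run alone, and 1 to 9 leaving out 1 library (1 without Q92 male 3, 3 without Q92 female 1). Without low-Htt libraries and with the compared libraries alone in the fit, the count was 4 (Nptx2, Drc1, Nr1d2 and Adgrg1). The age difference gave 1 gene by DESeq2. The sex difference (7 genes) gave 16 by DESeq2, 1 with all libraries, 14 with lanes 2 and 3 as covariate, and 0 to 12 leaving out 1 library. The cause was not tested in any of these. In the 35 alternatives that kept both low-Htt libraries the Htt difference was positive, 0.063 to 0.15, with a smallest adjusted p of 0.321; fits without either are not read, since Htt set those libraries apart. No value changed sign among called results.

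With the replicate number as a block the counts were 3 with all libraries and 5 without those of low Htt. The numbers did not pair the libraries: over 22 same-numbered pairs the median correlation of deviations was 0.0044 (7 above 0.1), against -0.0042 over 74 others. Depth limits the least abundant genes named (Egr2, 0.888 to 11.3 CPM without low-Htt libraries), and the 3 kept Q92 females limit the tests by sex.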
